A study of Mus musculus with 32 samples.

Results

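The 10 circadian clock genes Per1, Per2, Per3, Cry1, Cry2, Arntl, Clock, Nr1d1, Nr1d2 and Dbp were examined in mouse frontal cortex. They were chosen by symbol from the 33000 genes of the count table, and each matched a single row. No threshold on their values was used, but earlier results of these data were known when they were chosen. The libraries came from 3-month-old mice, either wild-type (WT) C57BL/6 or homozygous for GFAP-IL6, a transgene in which the astrocyte promoter of Gfap drives interleukin 6, used as a model of neuroinflammation. Total RNA was put into reverse transcription at 50, 10, 1 or 0.5 ng, with 4 libraries for each genotype and input and 32 in all. The RNA was sequenced from transcript 3′ ends by 3'Pool-seq, in which samples are pooled right after an indexed reverse transcription. The sources used here do not give the time of day at which tissue was collected, nor whether libraries of a group came from separate animals. The p-values below therefore measure the spread between these libraries only.

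The mammalian clock is a transcriptional feedback loop that runs in most cells, the cortex included. CLOCK and ARNTL (BMAL1) form a dimer that binds E-box elements and drives the Per and Cry genes, whose proteins return to the nucleus and repress that dimer. In a second loop the nuclear receptors NR1D1 and NR1D2 (REV-ERBs), themselves driven through E-boxes, repress Arntl through the RORE element, while DBP, an output of the loop, activates genes through D-box elements. The transcripts of these genes rise and fall over the day, most of them strongly, so that their level in a tissue depends on when it was taken.

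The elements through which these genes are held to act on each other were searched for as letters in promoters, and the matches are shown. RefSeq promoter windows (GRCm38.p6, from 250 bases before to 50 bases after a start site) were at hand for 9 of the 10 genes, in 13 windows, with none for Per2. Each line gives up to 30 bases on the strand of the gene, 5′ to 3′, with the match in capitals. The E-box was searched as CACGTG, the E'-box as CACGTT, the D-box as TTATGTAA and TTACGTAA, the RORE core as 2 A, any base, T, any base and then GGTCA, and the cAMP response element as TGACGTCA, each on both strands, and the E'-box matches below are on the opposite strand and so read AACGTG.
Per1, E-box: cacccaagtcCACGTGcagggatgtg
Cry1, E-box: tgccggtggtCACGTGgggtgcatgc
Cry1, E'-box: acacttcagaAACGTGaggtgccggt
Cry2, E'-box: acatggtgggAACGTGagggggcgga
Nr1d1, E'-box: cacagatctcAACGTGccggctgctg
Per3, first D-box: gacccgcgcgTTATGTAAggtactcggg
Per3, second D-box: ccgcccgcggTTATGTAAcccccgccgt
Arntl, RORE core: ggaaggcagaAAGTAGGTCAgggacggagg

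The Per1 stretch is chr11:69098773-69098798, 166 bases before a RefSeq start site that lies inside the gene. The 2 Cry1 stretches, chr10:85185099-85185124 and chr10:85185118-85185143, have their matches 60 and 79 bases before the start. The Cry2 stretch is chr2:92434220-92434245, with the match 166 bases before the start, and the Nr1d1 stretch is chr11:98775390-98775415, with the match 28 bases before it. The 2 Per3 stretches, chr4:151044853-151044880 and chr4:151044806-151044833, hold D-box letters 205 and 158 bases before the start. The Arntl stretch, chr7:113207528-113207557, lies just after the start, with its match at base 27. An E-box was present in 7.15% of all 32817 windows and in windows of 2 of the 9 members, an E'-box in 4.69% and 3 members, the D-box TTATGTAA in 0.935% and 1 member, and the RORE core in 0.603% and 1 member. TTACGTAA, in 0.119% of windows, and the cAMP response element, in 1.79%, were in no member window. Counted by window, the first 4 elements were in 2, 3, 1 and 1 of the 13 member windows. No E-box or E'-box stood in the windows of Per3, Arntl, Clock, Nr1d2 or Dbp. A match is a description of these letters and was not tested as a binding site, and the promoters were not assayed here.

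Total counts per library ran from 1071895 to 7538356 at 50 ng, from 1064514 to 9840302 at 10 ng, from 261378 to 2800270 at 1 ng and from 295022 to 2722389 at 0.5 ng. Levels are given as CPM, the count of a gene scaled to an equal total in every library with no length correction, so levels are compared between libraries and not between genes. The lowest level taken as measurable was 3 counts in a library, equal to 0.305 to 11.5 CPM by library, and this floor covers counting error only. Gfap, the gene whose promoter drives the transgene, was higher in GFAP-IL6 at 50 ng and 10 ng (log2 fold change 2.20 and 2.49, both passing). The GFAP-IL6 replicate 4 library at 50 ng stood apart from its group, with a mean correlation of 0.935 with the other 3 libraries against 0.947 to 0.957 for those. The Dbp, Per1 and Clock values at 50 ng and the median of the clock genes there are given with and without it. At 10 ng GFAP-IL6 replicate 2 likewise had the lowest mean correlation of its group, at 0.933 against 0.945 to 0.949. Neuron markers were high in every 10 ng library (summed level 3770 to 4847 CPM over Snap25, Rbfox3, Slc17a7 and Gad1). The striatum markers Drd1, Drd2, Adora2a and Rgs9 summed to 8.02 to 23.8 CPM there, with Drd2 at 0 in all 8 libraries and Drd1 and Rgs9 above the floor in each. The WT replicate 3 libraries held far more of the choroid plexus markers Ttr, Kl and Folr1 than the other WT libraries, at 3375 CPM against 53.7 to 113 CPM at 50 ng and at 3016 CPM against 47.4 to 93.1 CPM at 10 ng.

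All 10 clock genes had counts in every library at 50 and 10 ng, where 0 of 80 values were at 0. At 1 ng 6 of 80 values were at 0 counts (7.5%), and at 0.5 ng 9 of 80 (11.25%). GFAP-IL6 was compared with WT at each input with edgeR's quasi-likelihood test, and a gene passed with a Benjamini-Hochberg adjusted p under 0.05 over all genes tested. None of the 10 clock genes passed at 50 ng, where 33 of 11773 genes did (0.28%), and none of 10 passed at 10 ng, where 40 of 12043 genes did (0.332%). None of the 9 tested passed at 1 ng (3 of 9276 genes, 0.0323%) or at 0.5 ng (1 of 8571 genes, 0.0117%). At an unadjusted p under 0.05 there was 1 clock gene at 50 ng, against 5.63% of all genes, 2 at 10 ng (7.48%), 1 at 1 ng (3.59%) and 0 at 0.5 ng (2.87%). DESeq2 passed 0 clock genes at 50, 1 and 0.5 ng (0.238, 0.0845 and 0.151% of all genes) and 1 at 10 ng, Dbp (0.321%). In bulk tissue, fewer cells of a type and less RNA per cell cannot be told apart.

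Dbp encodes the PAR bZIP factor of the output arm and lies at chr7:45705088-45710203 (GRCm38, plus strand). At 50 ng the WT libraries held 112, 95.5, 115 and 90.7 CPM and the GFAP-IL6 libraries 77.3, 99.8, 77.7 and 51.6 CPM. Of the GFAP-IL6 libraries, 3 lay below every WT library and replicate 2 lay among them, so the groups overlapped. The means were 103 ± 12.002 CPM in WT and 76.6 ± 19.7 CPM in GFAP-IL6 (SD, n = 4 each), and the log2 fold change was -0.49 ± 0.19 (SE, edgeR quasi-likelihood test, adjusted p = 0.765). Without GFAP-IL6 replicate 4 it was -0.34 (adjusted p = 0.601).

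At 10 ng the Dbp levels were 89.3, 95.1, 128 and 96.0 CPM in WT and 75.5, 52.6, 70.0 and 64.2 CPM in GFAP-IL6. All 4 GFAP-IL6 libraries lay below all 4 WT libraries. Dbp was the single clock gene whose groups did not overlap in either direction at this input. Among all genes, 161 of 12043 (1.34%) had all GFAP-IL6 libraries below all WT libraries, and a further 333 had them all above. The GFAP-IL6 mean of 65.6 ± 9.82 CPM was 0.642 times the WT mean of 102 ± 17.6 CPM (SD, n = 4). The log2 fold change came to -0.65 ± 0.17 (SE). This missed the threshold in edgeR (adjusted p = 0.0898) and passed it in DESeq2 (adjusted p = 0.0284) and in edgeR without the filter on low counts (adjusted p = 0.0459). Over the 8 fits that left out a library the value ran from -0.73 to -0.56 and the adjusted p from 0.0739 to 0.430. Without GFAP-IL6 replicate 2, the library lowest in Dbp, the smallest edgeR adjusted p of any clock gene was 0.324.

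At 1 ng Dbp stood at 45.2, 104, 112 and 110 CPM in WT and at 95.8, 45.9, 50.2 and 56.1 CPM in GFAP-IL6. In each group 1 library stood away from the other 3, and these were WT replicate 1, which was low, and GFAP-IL6 replicate 1, which was high. The log2 fold change was -0.55 ± 0.37 (SE, edgeR adjusted p = 0.997). At 0.5 ng the order of the means was the other way round, at 49.99 ± 25.3 CPM in WT and 66.6 ± 24.6 CPM in GFAP-IL6 (SD, n = 4), with 87.3, 43.3, 32.4 and 36.9 CPM in the WT libraries and 95.5, 78.0, 51.2 and 41.9 CPM in the GFAP-IL6 libraries. The groups overlapped and the log2 fold change was 0.37 ± 0.57 (SE, adjusted p = 0.9999). The genotype effect at 0.5 ng differed from that at 50 ng by 0.80 ± 0.46 on the log2 scale (SE, interaction term of a fit of all 32 libraries), which did not pass (edgeR adjusted p = 0.567).

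**Figure D1:**
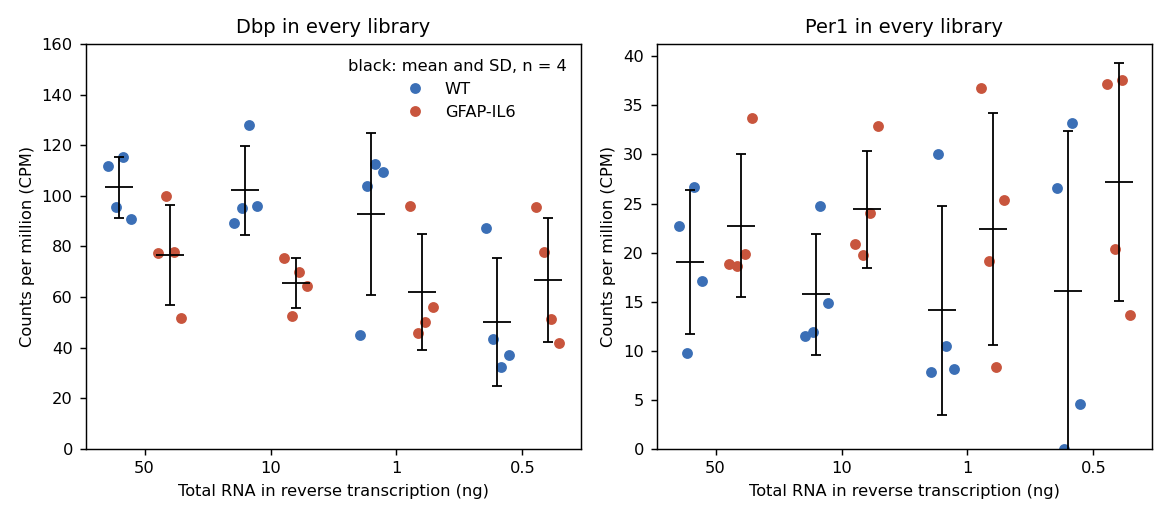
Level of Dbp (left) and Per1 (right) in CPM, on a linear axis from 0, in every library by total RNA input in ng. Blue points are WT, red points GFAP-IL6, and black marks are the mean and SD of 4 libraries. At 10 ng all 4 GFAP-IL6 libraries lie below the WT libraries for Dbp, between 52.6 and 75.5 CPM, while for Per1 the groups overlap at every input.

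The Dbp count carries a limit. In the GENCODE M21 annotation, which is later than the one the authors counted with, 539 exon bases of Dbp, all in the last 1000 bases of the gene, are shared with Sphk2 on the opposite strand. Whether counting used strand was not stated, so reads of these genes may not be told apart. Dbp has 2993 exon bases in M21 against a length of 1789 in the deposited counts, so the shared bases may not all have been counted. Sphk2, a sphingosine kinase, was at 9.50 ± 2.49 CPM in WT and 7.90 ± 3.76 CPM in GFAP-IL6 libraries made from 10 ng (SD, n = 4). Its log2 fold change was -0.22 ± 0.38 (SE, edgeR adjusted p = 0.914). The low Dbp levels in GFAP-IL6 at 10 ng stood beside differences in markers of other cells. The microglia markers Cx3cr1, Csf1r, P2ry12 and Aif1 summed to 201 to 282 CPM in GFAP-IL6 and to 148 to 175 CPM in WT, 3 of the 4 were higher and Aif1 passed (log2 fold change 0.87, adjusted p = 0.0238). The endothelial markers Cldn5, Pecam1 and Flt1 summed to 25.6 to 62.0 CPM against 14.7 to 26.3 CPM, and the astrocyte markers Aqp4, Aldh1l1, Slc1a3 and Gja1 to 523 to 603 CPM against 446 to 489 CPM. Of the 3 endothelial markers 2 were tested, each higher, and of the 4 astrocyte markers 3 were higher and 1 lower, with 0 passing in either list. The neuron markers summed to 3770 to 4385 CPM in GFAP-IL6 and to 4087 to 4847 CPM in WT, with 3 of 4 lower and 0 passing. The choroid plexus markers summed to 31.4 to 313 CPM in GFAP-IL6, and the WT library with 3016 CPM was the one with the highest Dbp, at 128 CPM. Without that library the Dbp log2 fold change at 10 ng was -0.56 (edgeR adjusted p = 0.430), and the GFAP-IL6 libraries still lay below the other WT libraries. The part of the remaining markers in the Dbp difference was not tested.

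Per1, a repressor of the loop that also responds quickly to signals outside it, lies at chr11:69095217-69109960 (plus strand) and had the higher mean in GFAP-IL6 at all 4 inputs. At 50 ng the WT libraries were at 22.7, 9.78, 26.7 and 17.1 CPM and the GFAP-IL6 libraries at 18.8, 18.7, 19.8 and 33.7 CPM. The GFAP-IL6 values lay within the WT range apart from replicate 4, the library that stood apart. The log2 fold change was 0.21 ± 0.27 (SE, edgeR adjusted p = 0.880), and without that library it was -0.07 (adjusted p = 0.996), so its sign rested on 1 library.

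At 10 ng Per1 was at 11.5, 11.9, 24.8 and 14.8 CPM in WT and at 20.9, 19.7, 24.0 and 32.9 CPM in GFAP-IL6. The lowest GFAP-IL6 library lay above 3 WT libraries and below WT replicate 3. The GFAP-IL6 mean was 1.55 times the WT mean and the log2 fold change was 0.63 ± 0.27 (SE), with an unadjusted p of 0.0281 and an edgeR adjusted p of 0.613. Without WT replicate 3, the library rich in choroid plexus markers, it was 0.88 (adjusted p = 0.452). At 1 ng the values were 7.86, 30.0, 10.4 and 8.18 CPM in WT against 36.7, 19.1, 8.36 and 25.4 CPM in GFAP-IL6 (log2 fold change 0.77 ± 0.77, adjusted p = 0.997). At 0.5 ng they were 26.6, 0, 33.2 and 4.56 CPM against 37.2, 20.3, 37.6 and 13.6 CPM (log2 fold change 0.75 ± 1.102, adjusted p = 0.9999). Both low inputs showed wide overlap.

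The other repressors differed less than Per1 at 10 ng, while at 50 ng the values of Per3, Cry1 and Cry2 were no smaller than that of Per1, and none passed. Per2 (chr1:91415982-91459324, minus strand) ranged from 13.1 to 23.1 CPM in WT and from 7.46 to 23.3 CPM in GFAP-IL6 at 50 ng, with log2 fold changes of 0.01 ± 0.28 at 50 ng and 0.19 ± 0.29 at 10 ng (SE). Per3 (chr4:151003652-151044665, minus strand), the family member that is least needed for rhythm, ranged from 11.3 to 21.6 CPM and from 13.1 to 27.2 CPM, with log2 fold changes of 0.32 ± 0.27 and 0.21 ± 0.28. Cry1 (chr10:85131700-85185064, minus strand) ranged from 10.1 to 15.3 CPM and from 11.1 to 22.4 CPM, with log2 fold changes of 0.22 ± 0.27 and -0.23 ± 0.33. The groups overlapped for each of these genes, and the sign for Cry1 was not the same at the 2 inputs. Cry2 (chr2:92403646-92434043, minus strand), the second cryptochrome, ranged from 48.9 to 84.9 CPM in WT and from 65.3 to 91.9 CPM in GFAP-IL6 at 50 ng, with log2 fold changes of 0.24 ± 0.19 and 0.05 ± 0.18. The adjusted p of these 4 genes ran from 0.837 to 0.995 at both inputs.

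For the activators, Clock (chr5:76209868-76304792, minus strand) was at 48.7 to 59.2 CPM in WT and at 53.0 to 95.5 CPM in GFAP-IL6 at 50 ng. The highest value was again that of GFAP-IL6 replicate 4, and the log2 fold change was 0.33 ± 0.20 (SE, adjusted p = 0.835) with that library and 0.11 without it. At 10 ng it was 0.26 ± 0.20 (adjusted p = 0.795). Arntl (chr7:113207465-113314126, plus strand), the partner of Clock, was at 28.6 to 34.5 CPM and at 21.1 to 38.3 CPM at 50 ng, with log2 fold changes of -0.17 ± 0.21 and -0.06 ± 0.25 (adjusted p = 0.878 and 0.964). The GFAP-IL6 libraries lay on both sides of the WT libraries at 50 ng. At 10 ng WT replicate 3 was highest, at 40.7 CPM, and without it the log2 fold change was 0.15 (adjusted p = 0.934).

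Nr1d1 (chr11:98767932-98775333, minus strand) was at 4.70 to 15.9 CPM in WT and at 4.66 to 11.8 CPM in GFAP-IL6 at 50 ng, the latter from 5 to 66 counts, with log2 fold changes of -0.24 ± 0.35 at 50 ng and -0.31 ± 0.36 at 10 ng (SE, adjusted p = 0.891 and 0.868). In the same annotation it shares 263 exon bases near its 3′ end with Thra, a thyroid hormone receptor gene on the opposite strand. Nr1d1 has 3077 exon bases there against a length of 2721 in the deposited counts, so these bases may not all have been counted. Thra was at 182 ± 24.2 CPM in WT at 50 ng (SD, n = 4), and its own log2 fold changes were 0.22 ± 0.18 and 0.21 ± 0.16. How reads in shared bases were assigned was not stated, so the Nr1d1 count may hold Thra reads or lack reads of its own. Nr1d2 (chr14:18204054-18239127, minus strand), the other REV-ERB, was at 46.6 to 67.3 CPM and at 42.0 to 79.0 CPM at 50 ng, with log2 fold changes of -0.01 ± 0.20 and 0.03 ± 0.20 (adjusted p = 0.995 and 0.976). The highest Nr1d2 level at 50 ng was that of GFAP-IL6 replicate 4, and over the 8 fits that left out a library its log2 fold change ran from -0.21 to 0.08. The groups of both receptors overlapped at both inputs.

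**Figure D2:**
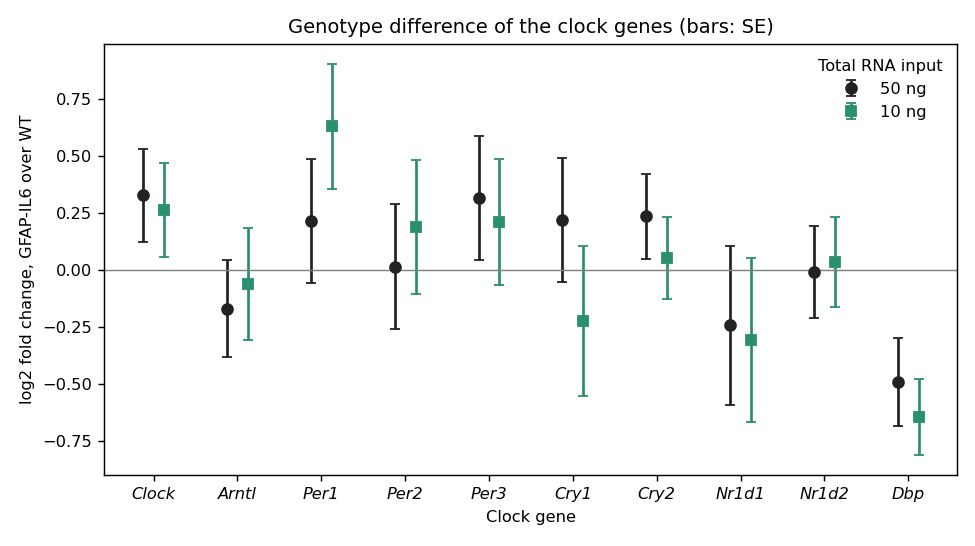
Log2 fold change of GFAP-IL6 over WT for the 10 clock genes at 50 ng (black circles) and 10 ng (green squares), with bars of 1 SE from edgeR. Dbp is the lowest at both inputs, at -0.49 and -0.65, and no gene passed the adjusted threshold.

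As a list, the clock genes lay close to all genes at 50 and 10 ng. At 50 ng 4 of 10 had a log2 fold change under 0 (50.4% of all genes) and their median was 0.11 against 0.00 over all genes. Without GFAP-IL6 replicate 4, the library that stood apart, 6 of 10 were under 0 and the median was -0.047. At 10 ng 4 of 10 were under 0 (49.6%), with a median of 0.04 against 0.00. Their summed level was 384 ± 45.7 CPM in WT and 390 ± 44.3 CPM in GFAP-IL6 at 50 ng, and 369 ± 52.6 and 360 ± 34.7 CPM at 10 ng (SD, n = 4). At 1 ng 7 of the 9 tested were under 0 (4678 of 9276 genes), with a median of -0.39 against -0.0065 over all genes. The summed level at 1 ng was 397 ± 32.3 CPM in WT and 326 ± 50.4 CPM in GFAP-IL6 (SD). At 0.5 ng the order was the other way round, at 309 ± 67.1 and 391 ± 55.3 CPM.

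To use all reads, counts were summed over the 4 inputs for each genotype and number. None of the 10 genes passed in that fit (edgeR, 63 of 13450 genes, 0.468%), 2 had an unadjusted p under 0.05 (7.9% of all genes), and DESeq2 passed 0 (0.642%). Dbp was at a log2 fold change of -0.46 ± 0.15 (SE, adjusted p = 0.288), Per1 at 0.53 ± 0.23 (adjusted p = 0.578) and Cry1 at 0.44 ± 0.25 (adjusted p = 0.689). For Cry1 the sum over 50 and 10 ng alone gave -0.04.

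At low input the clock genes were measured with a wider spread. The coefficient of variation of CPM between the 4 libraries of a group had a median over the genes of 26.4% at 50 ng (range 9.28 to 44.8%) and 22.7% at 10 ng (4.92 to 39.3%). It was 45.8% at 1 ng (26.1 to 123%) and 58.1% at 0.5 ng (8.52 to 200%). Per2 at 0.5 ng gave the widest, since WT replicates 1, 2 and 3 were at 0 counts, below floors of 2.49, 6.50 and 2.32 CPM, and replicate 4 was at 19.8 CPM from 52 counts. In GFAP-IL6 the same gene was at 19.2, 0, 0.522 and 39.3 CPM, so single libraries moved between 0 and the level seen at 50 ng and above it.

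**Figure D3:**
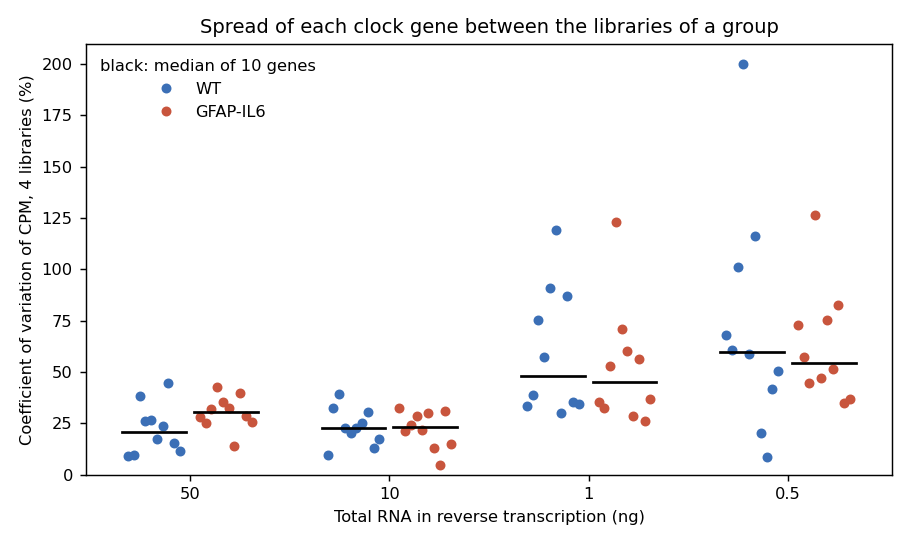
Coefficient of variation of CPM (percent, from 0) between the 4 libraries of each group, for each clock gene, by total RNA input in ng. Blue points are WT, red points GFAP-IL6, and black lines are the median of the 10 genes. The points lie under 45% at 50 and 10 ng and spread up to 200% at 0.5 ng.

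Further differences between genotypes at the low inputs were seen in single genes and did not pass. Nr1d2 at 1 ng was at 80.5, 92.8, 101 and 38.4 CPM in WT and at 40.4, 30.6, 40.7 and 57.1 CPM in GFAP-IL6. WT replicate 4 lay among the GFAP-IL6 libraries and the other 3 above them, with a log2 fold change of -0.84 ± 0.39 (SE, unadjusted p = 0.0452, edgeR adjusted p = 0.997). At 0.5 ng it was 0.58 ± 0.50 (adjusted p = 0.9999). Cry1 at 1 ng was at 3.93, 0, 0 and 5.72 CPM in WT and at 10.1, 3.83, 17.3 and 22.1 CPM in GFAP-IL6 and did not pass the filter on low counts. Its genotype effect at 1 ng differed from that at 50 ng by 2.03 ± 1.18 on the log2 scale (SE, adjusted p = 0.9999). At 0.5 ng Cry1 was at a log2 fold change of 2.20 ± 1.41 and Per3 at -1.64 ± 1.12 (SE, adjusted p = 0.9999 each), and the Per3 effect differed from that at 50 ng by -1.91 ± 0.96 (adjusted p = 0.474). Over the 3 interaction tests 0 of 10 clock genes passed, as did 0, 0 and 24 of 12164 genes at 10, 1 and 0.5 ng (0.0, 0.0 and 0.197%), none had an unadjusted p under 0.05 (0.00822, 2.74 and 10.7% of all genes), and DESeq2 passed 0 (0.0, 0.0503 and 1.24%).

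The effect of input itself was tested over both genotypes in the same fit of all 32 libraries. The same limit of a shared spread therefore holds for 10 ng against 50 ng. None of the 10 clock genes passed at 10 ng against 50 ng (0 of 12164 genes, 0.0%), at 1 ng (100 genes, 0.822%) or at 0.5 ng (818 genes, 6.72%), and DESeq2 passed 0 in each (0.0101, 1.2 and 7.02%). The unadjusted p was under 0.05 for 0, 0 and 1 clock genes (0.534, 8.25 and 20.0% of all genes), the last being Dbp at 0.5 ng. Dbp had a mean of 90.0 CPM at 50 ng and 58.3 CPM at 0.5 ng over 8 libraries, a log2 difference of -0.56 ± 0.23 (SE, edgeR adjusted p = 0.152). Without WT replicate 1 this passed (-0.78, adjusted p = 0.0378). Nr1d2 was at 0.45 ± 0.24 at 0.5 ng (adjusted p = 0.291) and Cry1 at -1.06 ± 0.59 at 1 ng (adjusted p = 0.721). Per2 at 0.5 ng was at -0.66 ± 0.70 (adjusted p = 0.658), and without WT replicate 4, the one WT library with Per2 counts, the fit passed it (adjusted p = 0.0400) with a fitted value that is no measured size because the WT libraries left were at 0.

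Whether the genes of the loop varied together between libraries was examined over the 8 libraries of an input, with levels centred within genotype. Of 8 relations at 50 ng and the same 8 at 10 ng, 0 passed in either (two-sided exact permutation within genotype, 576 arrangements, smallest p 0.00174). Dbp and Nr1d2 are both held to be driven through E-boxes, although none stood in the windows searched here. The pair gave r = -0.81 at 50 ng (rho = -0.55, exact permutation p = 0.0851 and 0.226, adjusted 0.340 and 0.903), which became 0.09 without the 2 libraries with the most extreme Dbp, so the value rested on those. At 10 ng the same pair gave r = 0.39 (rho = 0.19, exact permutation p = 0.424 and 0.703, adjusted 0.678 and 0.873). Dbp and Nr1d1 gave r = -0.65 at 50 ng and 0.64 at 10 ng (exact permutation p = 0.0712 and 0.0608, adjusted 0.340 and 0.243, rho = -0.55 and 0.57 with p = 0.212 and 0.141), and -0.37 and 0.03 without the 2 farthest libraries. Nr1d1 and its target Arntl gave r = 0.14 at 50 ng (rho = 0.02, exact permutation p = 0.741 and 0.917) and 0.78 at 10 ng (rho = 0.57, exact permutation p = 0.0503 and 0.177, adjusted 0.243 and 0.472), the latter 0.25 without WT replicates 1 and 3.

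Libraries with the same genotype and number at 50 and 10 ng were set against each other, although the labels do not say that they share RNA. Over 8 such pairs 0 of 10 genes passed (exact permutation within genotype, Benjamini-Hochberg adjusted). Nr1d2 gave r = 0.78 (rho = 0.69, exact permutation p = 0.125 and 0.104, adjusted 0.538 and 0.344), and 0.31 without the 2 farthest libraries. Cry2 gave r = 0.71 (rho = 0.62, exact permutation p = 0.0938 and 0.163, adjusted 0.538 and 0.344), and 0.72 without the 2 farthest. Per1 gave r = 0.66 (rho = 0.62, exact permutation p = 0.161 and 0.139, adjusted 0.538 and 0.344), and 0.52 without the 2 farthest. Dbp gave r = -0.25 (rho = -0.24, exact permutation p = 0.674 and 0.604, adjusted 0.842 and 0.755), and 0.25 without them, so a library low in Dbp at 50 ng was not reliably low at 10 ng.

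**Figure D4:**
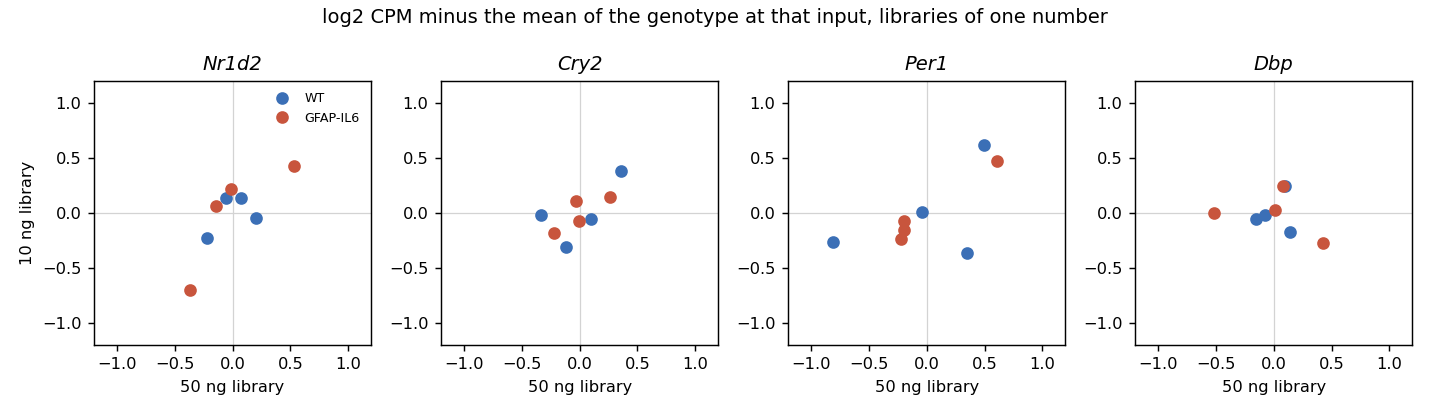
Level of Nr1d2, Cry2, Per1 and Dbp in the 10 ng library (y) against the 50 ng library of the same genotype and number (x), as log2 CPM minus the mean of the genotype at that input. Blue points are WT and red points GFAP-IL6. The points of Nr1d2 rise from lower left to upper right (r = 0.78), and those of Dbp do not (r = -0.25).

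The genes most like a clock gene were named by Pearson's r of log2 CPM, centred within genotype and input, over the 16 libraries at 50 and 10 ng and 8735 genes with a mean of at least 10 CPM. For Dbp these were Hacd1 (r = 0.92), Mrps25 (0.90) and Nhp2 (0.89), and for Arntl Clptm1l (0.83), Gna12 (0.82) and Fcho1 (0.79). None of them is a clock gene. Nr1d1 had a mean under 10 CPM and was not in this set. Among the other members the highest r was 0.84, between Per1 and Cry2, and the lowest was -0.69, between Clock and Dbp. These values share libraries and depth and are descriptions.

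Of 22 further genes of the clock pathway, 21 were tested at 50 and 10 ng and 0 passed in any comparison of genotype or input. They were loop regulators (such as the ROR receptors that activate Arntl), kinases and ubiquitin ligases that act on PER and CRY, and outputs related to Dbp. At 50 ng the highest log2 fold changes were those of Bhlhe41, a repressor of E-box genes, at 0.44 ± 0.27, and of Gsk3b, a kinase, at 0.38 ± 0.20. The lowest were those of Fbxl21, a ligase of CRY, at -0.54 ± 0.53, and of Ciart, a repressor of CLOCK and ARNTL, at -0.30 ± 0.29 (SE, adjusted p from 0.835 to 0.845). Ciart was at -0.31 ± 0.29 at 10 ng and at -0.58 ± 0.24 in the summed counts, where its unadjusted p was 0.0221 and its adjusted p 0.547. The median log2 fold change of the 21 genes was 0.06 at 50 ng and -0.02 at 10 ng, beside 0.00 over all genes at both.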

How the data were processed

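The deposited values were whole-number counts per gene, not normalized, with 1 column per library. Per the paper's methods, the authors trimmed poly(A) stretches, aligned reads to mm10 with STAR 2.4 and counted reads per GENCODE gene with featureCounts. The submitters' processing notes list hg19 as build, which does not match mouse. There were no molecular identifiers, so a count is one of reads and not of transcript molecules. Replicate pairs differed beyond sampling noise (48 pairs, chi-square per degree of freedom at least 2.37).

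The table was fitted whole with edgeR 4.0.16 in R 4.3.3 (TMM, filterByExpr, quasi-likelihood test, Benjamini-Hochberg adjustment), 4 against 4 libraries at each input. Interactions and input effects came from a fit of all 32 libraries. Standard errors were worked out from the F statistic. Alternatives were DESeq2 1.42.0, its size factors, no filter, a replicate block, an added fold change threshold, limma 3.58.1 voom weights and leaving out replicates. Positions are from GENCODE M21 (GRCm38) and promoters from RefSeq. Relations used log2 CPM with a prior count of 2, computed in Python 3.11.15. The edgeR quasi-likelihood test, in some of its fits, and the exact permutation of r were checked on simulated data. The alternatives were not checked in this way. The check does not show how small a difference these libraries could detect. The 10 members, the further pathway genes and the marker lists were chosen with earlier results of these data known. All 10 members were named in every comparison as far as space allowed, of the pathway those that passed and the 2 highest and 2 lowest at 50 ng, and Ciart in other fits after its values were seen. Sphk2, Thra and the Per2 input value were named after the annotation or values were seen. The oligodendrocyte marker list is not reported here.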

Additional observations from a re-analysis of the deposited data

Results flagged for a closer look

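Of 80 groups of 4 libraries (10 clock genes, 2 genotypes and 4 inputs), 6 held a library far from the other 3 by Dixon's criterion. Chance flags about 1 in 20 groups. At 50 ng, Per1 was at 33.7 CPM in GFAP-IL6 replicate 4 against 18.7 to 19.8 CPM in the others, in the library that stood apart across all genes. At 10 ng, Arntl was at 40.7 CPM in WT replicate 3 against 21.0 to 24.1 CPM, in the library with 3016 CPM of choroid plexus markers. At 1 ng, Per1 was at 30.0 CPM in WT replicate 2 against 7.86 to 10.4 CPM, from 11 counts, and Dbp was at 45.2 CPM in WT replicate 1 against 104 to 112 CPM. At 0.5 ng, Cry2 was at 75.7 CPM in WT replicate 1 against 49.8 to 54.0 CPM, and Per2 at 19.8 CPM in WT replicate 4 against 0 in the others.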

How the results depend on the processing

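The count of clock genes that passed was 0 in every comparison and moved to 1 in 4 alternatives and 2 fits without a library. Dbp was that gene at 10 ng with the DESeq2 test (1 gene, log2 fold change -0.65, adjusted p = 0.0284), without the filter (1 gene, -0.65, adjusted p = 0.0459) and with the replicate block (1 gene, -0.65, adjusted p = 0.0159), and in the summed counts with the replicate block (1 gene, -0.47, adjusted p = 0.0392). At 0.5 against 50 ng, leaving out a replicate gave 0 to 1 genes (Dbp without WT replicate 1, Per2 without WT replicate 4, with Dbp between -0.78 and -0.50 over these fits). The numbers share no stated animal, and deviations of same-numbered libraries correlated at 0.0361 to 0.189 between genotypes at 50 ng, where 0.1 was required of every pair, so the block was not the main fit. Yet between genotypes 4 of 4 libraries correlated best with their own number at 50, 10 and 1 ng, and 1 of 4 at 0.5 ng. Within genotype every WT library at 50 ng correlated best with its own number at the other inputs, as did 3 or 4 of 4 GFAP-IL6 libraries. In every group replicate 2 had the lowest total count and replicate 4 the highest, so number and depth ran together. Whether pairing or depth lay behind these matches was not tested. Signs of values that missed the threshold turned with the block for Per2 at 50 ng (-0.0068), with DESeq2 size factors for Nr1d2 at 50 ng (0.00084) and in the sum over 50 and 10 ng for Cry1 (-0.039). With 1 replicate left out, log2 fold changes at 50 ng ran from -0.068 to 0.40 for Per1, -0.15 to 0.21 for Per2, -0.025 to 0.41 for Cry1, -0.50 to 0.046 for Nr1d1 and -0.21 to 0.084 for Nr1d2. At 10 ng they ran from -0.023 to 0.37 for Per2, -0.055 to 0.20 for Cry2, -0.18 to 0.15 for Arntl and -0.10 to 0.18 for Nr1d2. The r ran from -0.054 to 0.42 for Nr1d1 and Arntl at 50 ng, from -0.57 to 0.54 for Dbp and Nr1d2 at 10 ng and from -0.47 to 0.36 for Dbp between inputs. The cause was not tested. Low counts, down to 0 in single libraries, limit Per2, Cry1, Nr1d1 and Per3 at 1 and 0.5 ng and Per1 at 0.5 ng.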
